A study of Mus musculus with 10 samples.

Results

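Calprotectin and the receptors of mature neutrophils were followed in the spleens of proteoglycan (PG)-immunized BALB/c mice with and without arthritis. The set has 9 genes chosen by symbol: S100a8, S100a9, Fpr1, Fpr2, Itgam, Trem1, Csf3r, Cxcr2 and Mmp9. Of these 9 genes, 8 have a probe set under their symbol in the platform's probe-to-gene table, with 10 probe sets in all, of 45037 probe sets other than controls and 18193 genes with 1 symbol on the array. Fpr1 has none there and is not analysed here. All 10 probe sets passed the filter on dim signals, which kept 23805 probe sets and 11870 genes.

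Each array measured total RNA from a piece of spleen of 1 female BALB/c mouse. All 10 mice had received cartilage PG in the adjuvant DDA intraperitoneally, 3 times, so that the controls were immunized too and no naive spleen is among the arrays. The groups were old arthritic mice (n = 2, both labelled 9 months old), old non-arthritic mice (n = 2, 7 and 5 months), young arthritic mice (n = 2, 5 and 4 months) and young non-arthritic mice (n = 4, aged 3, 3, 2 and 1 months). The label of 5 months occurs in both an old and a young group, and in either age group the arthritic mice were all older than the non-arthritic mice. The labels do not say whether the age is that at the first injection or at harvest. The comparison of arthritic with non-arthritic mice asks which spleen transcripts differ with disease, and that of old with young non-arthritic mice asks which differ with age after immunization.

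Neutrophils leave the bone marrow when they mature, and in the mouse the spleen both stores them in its red pulp and can produce them when demand is high. S100a8 and S100a9 encode the small calcium-binding proteins that pair as calprotectin, which fills the neutrophil cytosol, withholds zinc and manganese from microbes and, once released, signals through Toll-like receptor 4. The receptors of the set steer the mature cell: Csf3r binds G-CSF, Cxcr2 binds CXC chemokines that draw neutrophils out of marrow and into tissue, Fpr2 senses formyl peptides, Itgam is the CD11b chain of the adhesion receptor Mac-1, and Trem1 amplifies inflammatory signals through the adaptor Tyrobp. Mmp9 is the gelatinase stored in late granules.

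The promoters of 4 members are shown because their genes mark the pattern described below: the calprotectin pair, Itgam, which moved with it over the mice, and Csf3r, which did so least but for Cxcr2. Sequences are RefSeq's on GRCm38.p6, from 250 bases before to 50 bases after the annotated start, written in the direction of the gene. Capitals mark exact matches to 3 motifs on either strand, so that a match on the opposite strand reads as the reverse complement. The TATA box was searched as TATAAA. The PU.1 motif was searched as GAGGAAG. The C/EBP motif was searched as TTNNGCAA. PU.1 and C/EBP factors are the main regulators of myeloid genes.
S100a8 promoter, chr3:90668821-90669120, plus strand: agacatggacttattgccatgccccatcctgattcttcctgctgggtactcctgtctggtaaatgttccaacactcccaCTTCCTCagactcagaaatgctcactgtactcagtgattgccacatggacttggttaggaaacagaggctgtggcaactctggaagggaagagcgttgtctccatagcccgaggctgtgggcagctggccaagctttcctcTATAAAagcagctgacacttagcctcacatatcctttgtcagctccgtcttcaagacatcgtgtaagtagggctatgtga
S100a9 promoter, chr3:90695672-90695971, minus strand: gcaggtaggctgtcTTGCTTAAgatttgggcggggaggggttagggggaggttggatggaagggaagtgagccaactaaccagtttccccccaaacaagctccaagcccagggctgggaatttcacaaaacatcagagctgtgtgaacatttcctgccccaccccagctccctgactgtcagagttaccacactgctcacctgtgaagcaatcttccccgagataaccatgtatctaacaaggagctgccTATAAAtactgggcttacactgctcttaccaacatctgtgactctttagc
Itgam promoter, chr7:128062390-128062689, plus strand: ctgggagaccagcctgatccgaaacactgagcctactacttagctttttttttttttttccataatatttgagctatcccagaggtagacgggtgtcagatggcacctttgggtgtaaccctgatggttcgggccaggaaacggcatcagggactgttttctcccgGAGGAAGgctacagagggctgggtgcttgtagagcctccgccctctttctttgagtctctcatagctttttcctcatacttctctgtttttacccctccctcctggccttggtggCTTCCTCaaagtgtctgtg
Csf3r promoter, chr4:126024409-126024708, plus strand: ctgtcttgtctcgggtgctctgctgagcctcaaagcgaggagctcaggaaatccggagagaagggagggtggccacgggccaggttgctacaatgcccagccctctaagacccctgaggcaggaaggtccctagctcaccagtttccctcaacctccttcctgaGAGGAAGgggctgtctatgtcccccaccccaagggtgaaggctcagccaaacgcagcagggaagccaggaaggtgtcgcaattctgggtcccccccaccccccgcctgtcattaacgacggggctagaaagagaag
S100a8 holds TATAAA 30 bases before its start and the PU.1 letters 171 bases before it on the opposite strand. S100a9 holds TATAAA at its annotated start and the C/EBP letters 236 bases before it on the opposite strand. Itgam holds the PU.1 letters 84 bases before the start and again, reversed, at base 32 of the transcript, and Csf3r holds them once, 86 bases before the start. Of all 32851 promoter windows of this length, 13.6% hold TATAAA, 13.6% the PU.1 letters and 10.8% the C/EBP letters, so each match is common, and none was tested as a site. Of the other members with a window, Fpr2 holds TATAAA 130 bases before its start, Fpr1 holds it 227 bases before, and Cxcr2 and Trem1 hold none of the 3 motifs. Motifs here do not overlap one another.

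Values are log2 RMA signals, on which a difference of 1 is a doubling of the fluorescence signal. Array medians lay between 6.88 and 6.96, and arrays correlated with each other at 0.955 to 0.992. The array of old arthritic mouse 2 stood apart on the first principal component, at a score of 52.6 against a next highest of 19.6, and results that rest on it are given without it as well. The RNA is that of whole spleen. More cells that hold a gene's RNA, neutrophils, their precursors or others, and more of it in each cell cannot be told apart. Of the defining markers of mature neutrophils, Ly6g and Retnlg have no probe set under their symbol, and the other mature neutrophil genes of the list are used below in their place.

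S100a8 and S100a9 had a common pattern over the mice: high in all arthritic mice, low in the old non-arthritic mice, and split by age in the young non-arthritic mice. S100a8 (1419394_s_at) had log2 signals of 14.61 and 14.73 in old arthritic mice, against 14.21 and 14.19 in old non-arthritic mice. It had 14.62 and 14.88 in young arthritic mice, against 14.57, 14.60, 14.59 and 14.28 in young non-arthritic mice of 3, 3, 2 and 1 months. Every arthritic mouse was thus above every non-arthritic mouse for S100a8, by little where the non-arthritic mouse was 2 to 3 months old, and the same held for 10.4% of all probe sets. S100a9 (1448756_at) had 14.64 and 14.79 in old arthritic mice and 13.98 and 14.15 in old non-arthritic mice. Its signals were 14.63 and 15.00 in young arthritic mice, against 14.67, 14.63, 14.76 and 14.23 in young non-arthritic mice, so that arthritic and non-arthritic young mice overlapped. The 1-month-old mouse was the lowest young mouse for both genes and lay close to the old non-arthritic mice. Both genes sat near the top of the scale, where the highest signals of any array were 15.21 to 15.36, and whether that compressed their differences was not tested.

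Fpr2, Itgam and Mmp9 were also highest in arthritic mice and lowest in old non-arthritic mice by group mean, with a wider spread. Mmp9 differed from the others in that its mean was higher in old than in young arthritic mice. Fpr2 (1422953_at), the formyl peptide receptor, had 11.26 and 11.89 in old arthritic mice against 10.69 and 10.77 in old non-arthritic mice. In young mice it had 11.38 and 12.20 with arthritis and 11.33, 11.21, 11.47 and 10.79 without. The arthritic mice numbered 2 were the highest of all for Fpr2, and the arthritic mice numbered 1 lay within the range of the young non-arthritic mice. Itgam (1422046_at) had 8.75 and 9.29 in old arthritic mice, 8.30 and 8.56 in old non-arthritic mice, 9.01 and 9.56 in young arthritic mice, and 8.95, 8.85, 9.07 and 8.23 in young non-arthritic mice. Old arthritic mouse 1 was below 3 of the 4 young non-arthritic mice for this gene. Mmp9 (1448291_at) had 10.22 and 10.86 in old arthritic mice against 9.35 and 9.49 in old non-arthritic mice, and 9.97 and 10.83 in young arthritic mice against 9.80, 9.74, 10.15 and 9.33 in young non-arthritic mice. The old groups did not overlap and the young groups did, through the 2-month-old mouse. The second Mmp9 probe set (1416298_at) correlated with the first at r = 0.978 over the 10 arrays and gave 9.68 and 10.45 in old arthritic mice and 8.86 and 8.88 in old non-arthritic mice.

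Trem1, Csf3r and Cxcr2 varied less, and over all mice their arthritic and non-arthritic signals overlapped. Trem1 (1447284_at) had 8.11 and 8.49 in old arthritic mice, 8.10 and 8.04 in old non-arthritic mice, 8.03 and 8.67 in young arthritic mice and 8.22 to 8.34 in young non-arthritic mice. On this probe set, 1 mouse of either arthritic group was high and the other was at the level of the old non-arthritic mice. Its second probe set (1460282_at) gave 6.44 and 7.17 in old arthritic mice, 6.47 and 6.37 in old non-arthritic mice, 6.86 and 7.14 in young arthritic mice and 6.48 to 6.89 in young non-arthritic mice, with r = 0.755 between the probe sets. There both young arthritic mice were above the old non-arthritic mice. The second probe set was above the array median by 0.28 in old arthritic mouse 2 and by 0.25 in young arthritic mouse 2. It was above by 0.02 in young non-arthritic mouse 1 and below the median in all other mice. It thus passed the filter through these mice. Csf3r (1418806_at), the G-CSF receptor, had 10.69 and 10.93 in old arthritic mice against 10.52 and 10.71 in old non-arthritic mice, and 10.51 and 10.90 in young arthritic mice against 10.56, 10.25, 10.53 and 10.47 in young non-arthritic mice. Cxcr2 (1421734_at) had 9.27 and 9.78 in old arthritic mice, 9.66 and 9.54 in old non-arthritic mice, 9.21 and 9.67 in young arthritic mice and 9.83, 9.51, 9.48 and 9.44 in young non-arthritic mice. The lowest Cxcr2 signals of the series were those of the arthritic mice numbered 1, and its highest that of a 3-month-old non-arthritic mouse.

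**Figure D1:**
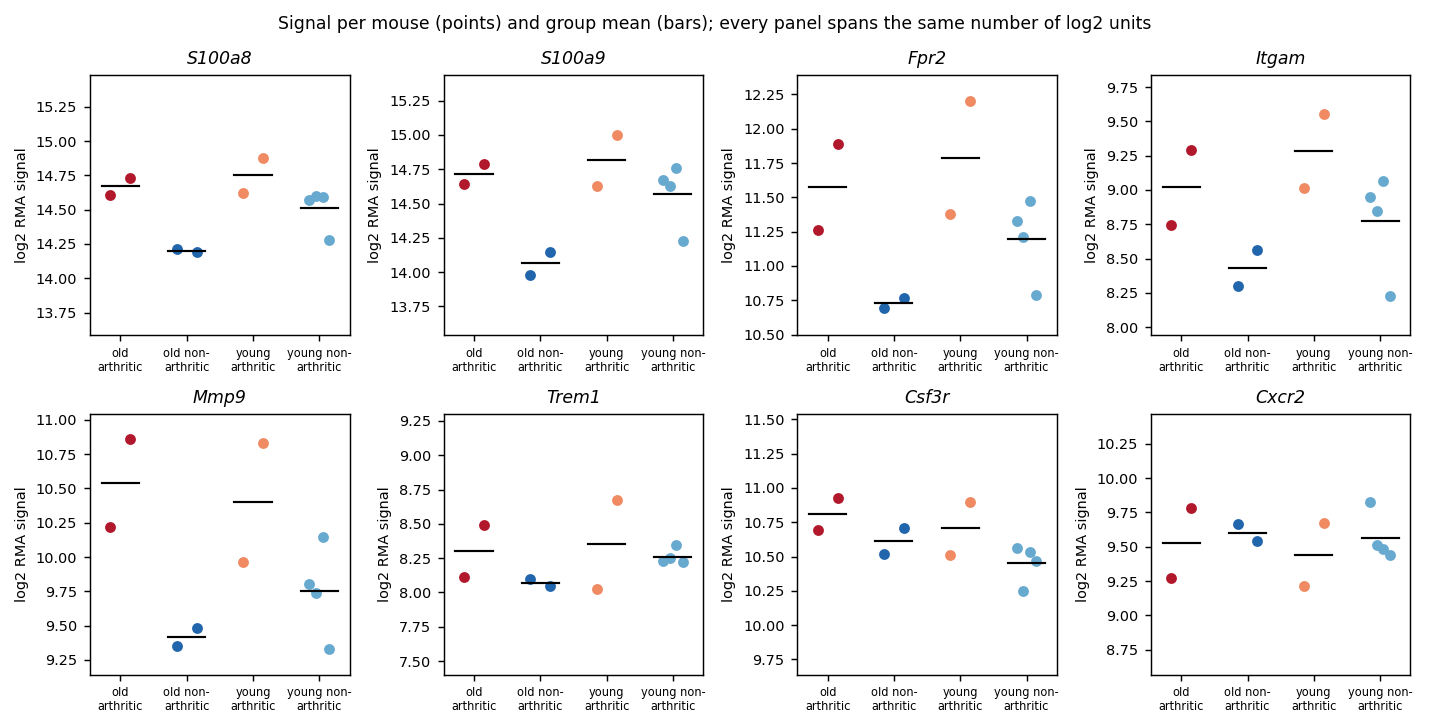
Log2 RMA signal (y axis) of 8 genes in each of the 10 mice (points), by group (x axis), with group means as bars. In S100a8 the old non-arthritic mice (14.21 and 14.19) and the 1-month-old mouse (14.28, the rightmost point) lie below the other 7 mice, whereas the 4 groups overlap in Cxcr2.

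Ordered by group mean, 6 of the genes had the old non-arthritic mice last (S100a8, S100a9, Fpr2, Itgam, Mmp9 and Trem1), as did 35% of all probe sets. The step from the young non-arthritic mice down to them was free of overlap for S100a8 (a difference of means of 0.31), S100a9 (0.51), Fpr2 (0.47) and Trem1 (0.19), against 7.77% of all probe sets. Itgam and Mmp9 overlapped there through the 1-month-old mouse. The steps between the 2 arthritic groups, 0.05 to 0.26 in these 6 genes, all lay within the overlap of their mice. Over the 10 arrays the SD was 0.55 for Mmp9, 0.49 for Fpr2, 0.42 for Itgam, 0.32 for S100a9 and 0.23 for S100a8. Csf3r, Trem1 and Cxcr2 had SDs of 0.20 to 0.21, against a median SD of 0.15 over all 11870 genes.

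At equal age, with arthritis status and months of age fitted together, none of the 8 genes passed the threshold of 0.05 on the adjusted p, where 2.26% of all probe sets did. Age entered that fit as a straight line, although the levels of non-arthritic mice did not run in 1 direction with age, as described below. Only the label of 5 months was shared by an arthritic and a non-arthritic mouse. The differences at equal age thus depend on that line, and other forms of age were not tested. By unadjusted p under 0.05, 5 of the 8 were higher in arthritic mice, against 19.2% of all probe sets. Fpr2 differed by 0.88 on the log2 scale (SE 0.25, 95% interval 0.33 to 1.43), with limma's adjusted p = 0.0823, and Mmp9 by 0.91 (SE 0.27, 0.31 to 1.51), with adjusted p = 0.0911. For S100a8 the difference was 0.42 (SE 0.13, 0.14 to 0.70), with adjusted p = 0.092, and for S100a9 it was 0.57 (SE 0.18, 0.18 to 0.97), with adjusted p = 0.0985. Itgam followed at 0.69 (SE 0.24, 0.16 to 1.21) with adjusted p = 0.129. The intervals of Trem1 (-0.10 to 0.57), Csf3r (-0.10 to 0.49) and Cxcr2 (-0.50 to 0.20) held 0, with adjusted p between 0.372 and 0.591. The second Trem1 probe set, whose signals lay near or below the array medians, differed by 0.43 (0.02 to 0.83) with adjusted p = 0.1998. The median difference was 0.50 over the 8 genes and 0.11 over all genes. When 1 mouse was left out, the lowest differences of Fpr2 (0.64), Mmp9 (0.68) and Itgam (0.50) came without young arthritic mouse 2. That of S100a9 (0.42) came without old non-arthritic mouse 1 and that of S100a8 (0.36) without old non-arthritic mouse 2. Without old arthritic mouse 2, Fpr2 differed by 0.83, Mmp9 by 0.85, S100a8 by 0.41, S100a9 by 0.55 and Itgam by 0.65, none past the threshold. The median gene fell to 0.01 when the arrays were quantile-normalized again, a scaling under which the differences were 0.72 for Fpr2, 0.77 for Mmp9, 0.30 for S100a8, 0.47 for S100a9, 0.59 for Itgam, 0.18 for Trem1, 0.06 for Csf3r and -0.26 for Cxcr2. No gene changed sign between scalings in this comparison.

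Among mice aged 4 months or more, where the labelled ages of the groups overlap, the 4 arthritic mice were set against the 2 old non-arthritic mice. None of the 8 genes passed, against 0.576% of all probe sets, and 5 were higher by unadjusted p under 0.05, against 17.9% of all. The differences were 1.05 for Mmp9 (SE 0.28, adjusted p = 0.0986), 0.95 for Fpr2 (SE 0.26, adjusted p = 0.101), 0.72 for Itgam (SE 0.26, adjusted p = 0.158), 0.70 for S100a9 (SE 0.16, adjusted p = 0.0734) and 0.51 for S100a8 (SE 0.12, adjusted p = 0.0745). Csf3r differed by 0.14, Trem1 by 0.25 (0.48 on its second probe set) and Cxcr2 by -0.12. Without old arthritic mouse 2, the differences were 0.89 for Mmp9, 0.80 for Fpr2, 0.59 for Itgam, 0.67 for S100a9 and 0.48 for S100a8. Leaving out old arthritic mouse 1 brought S100a8, S100a9, Mmp9 and Fpr2 past the threshold, in a fit that called 7.41% of all probe sets, and leaving out any of the other mice brought none. This comparison shares its control mice with that in old mice.

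In old mice, where arthritic mice were 9 and non-arthritic mice 7 and 5 months old, age and arthritis cannot be told apart either. None of the 8 genes passed, against 0.0714% of all probe sets. By unadjusted p under 0.05, 4 of 8 were higher in arthritic mice, against 13.6% of all. The differences between old arthritic and old non-arthritic mice were 1.12 for Mmp9 (95% interval 0.38 to 1.86, adjusted p = 0.141), 0.84 for Fpr2 (0.15 to 1.54, adjusted p = 0.198), 0.65 for S100a9 (0.24 to 1.07, adjusted p = 0.134), 0.59 for Itgam (-0.08 to 1.26, adjusted p = 0.318) and 0.47 for S100a8 (0.17 to 0.78, adjusted p = 0.137). Without old arthritic mouse 2, Mmp9 differed by 0.80, Fpr2 by 0.53, S100a9 by 0.58, Itgam by 0.32 and S100a8 by 0.42. Cxcr2 differed by -0.08, by 0.18 without old arthritic mouse 1 and by -0.33 without old arthritic mouse 2.

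In young mice, where arthritic mice were 4 to 5 and non-arthritic mice 1 to 3 months old, age and arthritis cannot be told apart. None of the 8 genes passed, against 0.311% of all probe sets, and none did by unadjusted p under 0.05, where 15.3% of all probe sets were higher. Young arthritic mice differed from young non-arthritic mice by 0.64 for Mmp9 (95% interval -0.0024 to 1.28), 0.59 for Fpr2 (-0.0046 to 1.19), 0.51 for Itgam (-0.07 to 1.09), 0.24 for S100a9 (-0.12 to 0.60) and 0.24 for S100a8 (-0.03 to 0.50), with adjusted p between 0.276 and 0.430. These values rest on young arthritic mouse 2: without it Fpr2 differed by 0.18, Mmp9 by 0.21, Itgam by 0.24, S100a8 by 0.10 and S100a9 by 0.06. Trem1 differed by -0.23 without that mouse and by 0.41 without young arthritic mouse 1.

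The effects of arthritis in old and young mice were not found to differ for any of the 8 genes (adjusted p = 0.9997 each), nor for any probe set (0% called). Either effect is mixed with that of age. The difference of the effects was 0.41 for S100a9 with an interval of -0.14 to 0.96, and 0.48 for Mmp9 with an interval of -0.50 to 1.46. When 1 mouse was left out, it ran from 0.22 to 0.60 for S100a9 and from 0.05 to 0.91 for Mmp9, with both ends of either range set by the young arthritic mice.

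**Figure D2:**
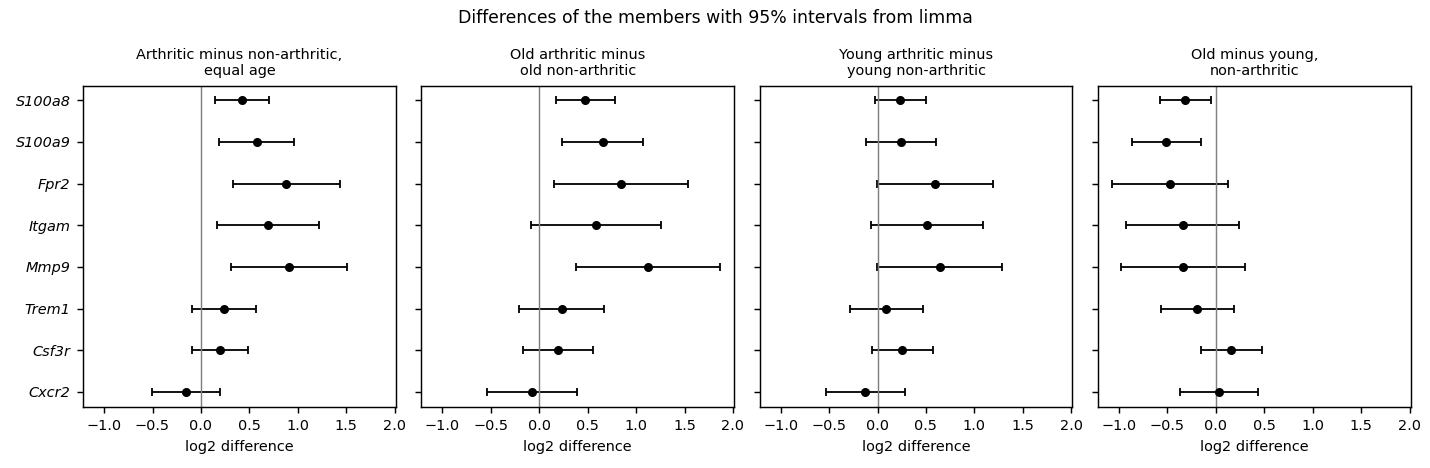
Log2 difference (x axis) of 8 genes in 4 comparisons, with points for limma's estimates and bars for 95% intervals. At equal age the intervals of S100a8, S100a9, Fpr2, Itgam and Mmp9 lie above 0 and those of Trem1, Csf3r and Cxcr2 include it, and no gene passed the threshold on the adjusted p in any panel.

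Between old and young non-arthritic mice, S100a9 and S100a8 had the lowest unadjusted p of the set. The difference was -0.51 for S100a9 (SE 0.16, 95% interval -0.87 to -0.15) and -0.31 for S100a8 (SE 0.12, -0.58 to -0.05), each with adjusted p = 0.997. None of the 8 genes passed, as 0% of all probe sets did, and 2 of 8 were lower by unadjusted p under 0.05, against 2.1% of all probe sets. Fpr2 differed by -0.47, Itgam by -0.34 and Mmp9 by -0.34, each with an interval that held 0, and Csf3r by 0.16. The slope over age in months at equal arthritis status was called for none of the 8 genes, against 0.0042% of all probe sets. It was -0.07 per month for S100a9 (SE 0.03) and between -0.07 and 0.02 for the others.

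The levels of non-arthritic mice did not run in 1 direction with age. The young non-arthritic mice of 2 to 3 months averaged 14.69 ± 0.07 for S100a9 (SD, n = 3), against 14.23 in the mouse of 1 month, and for Fpr2 they averaged 11.34 ± 0.13 against 10.79. The old non-arthritic mice of 5 and 7 months had 14.15 and 13.98 for S100a9 and 10.77 and 10.69 for Fpr2. Both genes were thus highest at 2 to 3 months and low on either side, with only 1 mouse at 1 month. Itgam was 8.23 in that mouse and 8.95 ± 0.11 in the mice of 2 to 3 months (SD, n = 3), and Mmp9 was 9.33 in that mouse and 9.90 ± 0.22 in those (SD, n = 3).

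**Figure D3:**
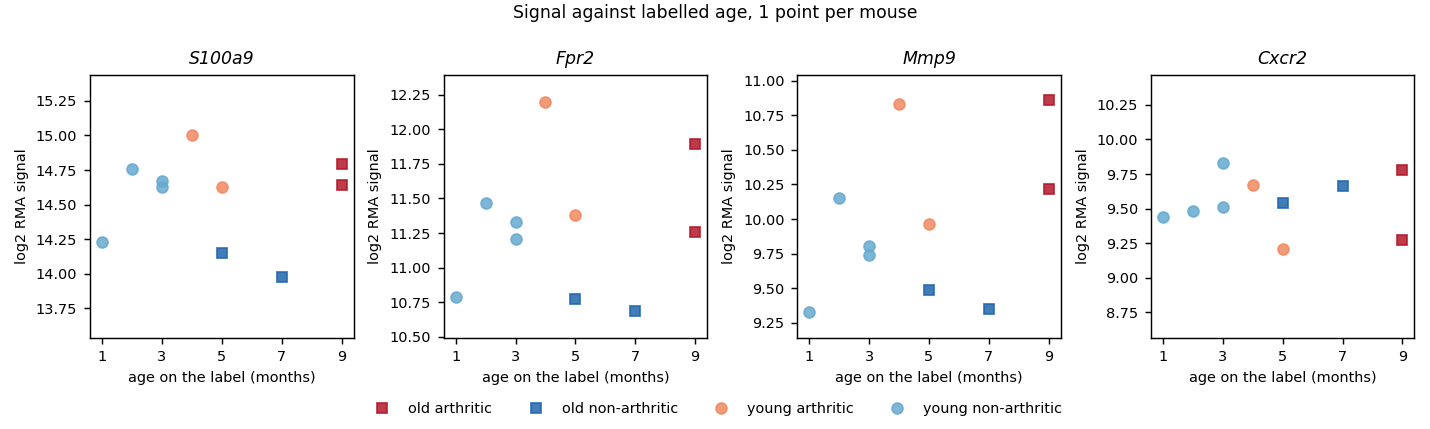
Log2 RMA signal (y axis) against labelled age in months (x axis), 1 point per mouse, squares for old and circles for young mice. For S100a9 the non-arthritic mice peak at 14.76 in the 2-month-old mouse and fall to 13.98 in the 7-month-old mouse, and Cxcr2 shows no such course.

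Over the 10 mice S100a8 correlated with S100a9 at r = 0.974, with Fpr2 at 0.948, with Itgam at 0.921 and with Mmp9 at 0.89. With Trem1 it correlated at 0.70, with Csf3r at 0.377 and with Cxcr2 at 0.0824, where the median over all genes was 0.334. These correlations describe 10 arrays that share RNA and hybridization, and carry no test. After the group means were subtracted, Cxcr2 correlated with S100a8 at 0.631 and with Fpr2 at 0.783, and Fpr2 with Mmp9 at 0.988. In groups of 2 mice the deviations mirror each other. For Cxcr2 and Fpr2, arthritic mouse 2 was above arthritic mouse 1 in either age group. The old non-arthritic mice went opposite ways, at 9.66 and 9.54 for Cxcr2 and 10.69 and 10.77 for Fpr2. The r after subtraction was not computed without old arthritic mouse 2. Without the 2 arrays farthest from the median of Csf3r, its r with Mmp9 dropped to 0.168, against 0.716 with them.

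**Figure D4:**
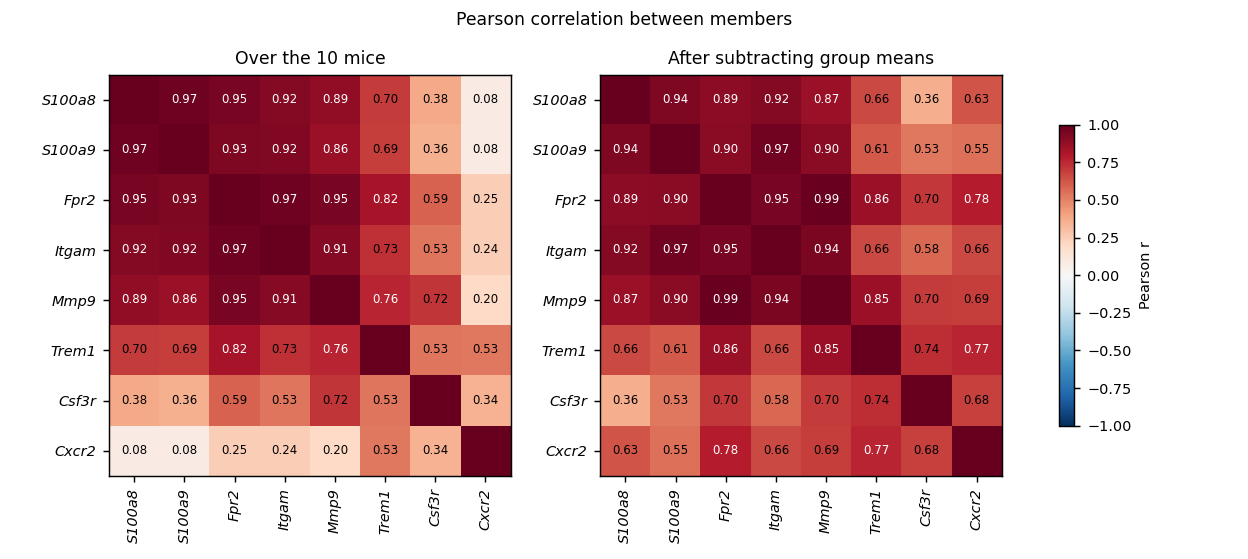
Pearson correlations between 8 genes over the 10 mice (left) and after subtracting group means (right), with red for positive r. S100a8, S100a9, Fpr2, Itgam and Mmp9 form a block of 0.86 or more on the left, while Cxcr2 reaches 0.08 with S100a8 there and 0.63 on the right.

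The 10 genes with patterns most like that of S100a8, members aside, were Ctsg (r = 0.994), Ywhah (0.987), Lcn2 (0.981), Prom1 (0.979), Anxa1 (0.977), Trem3 (0.974), Wfdc21 (0.973), Mcemp1 (0.972), Prtn3 (0.971) and Pglyrp1 (0.971), over 10 arrays. Ctsg and Prtn3 encode serine proteases that neutrophil precursors make for primary granules, Lcn2 encodes the siderophore-binding protein of secondary granules, and Pglyrp1 a granule protein that binds peptidoglycan. Ctsg had 11.39 and 11.89 in old arthritic mice, 10.07 and 10.04 in old non-arthritic mice, 11.42 and 12.25 in young arthritic mice, and 11.45, 11.55, 11.51 and 10.41 in young non-arthritic mice. The mice low for S100a8 were the same 3 that were low for Ctsg. Ctsg was chosen for its likeness to S100a8 over these arrays, so this is no separate support.

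All 12 kept granule genes of neutrophil precursors (of 14 listed) correlated with S100a8 above 0.8, with a median r of 0.959. Of the 22 kept other mature neutrophil genes (of 27 listed), 12 did so, with a median of 0.806. The 95th percentile of r with S100a8 over all genes was 0.799. The precursor list had a mean signal of 11.28 and 11.71 in old arthritic mice, 10.10 and 10.27 in old non-arthritic mice, 11.39 and 12.30 in young arthritic mice, and 10.56 to 11.82 in young non-arthritic mice. The median r of the same 12 genes was 0.33 with Csf3r and 0.0981 with Cxcr2. Csf3r instead had its highest list median with the erythroid genes, at 0.786 over 8 genes. Their mean signal was 12.50 and 12.56 in old arthritic mice and 12.15 to 12.23 in old non-arthritic mice. It was 12.23 to 12.37 in young arthritic mice and 11.33 to 12.16 in young non-arthritic mice. Old arthritic mouse 2 was highest for both Csf3r (10.93) and the erythroid list (12.56). Young non-arthritic mouse 2 was lowest for both (10.25 and 11.33). The erythroid r without these mice was not computed. The platelet genes also followed S100a8, with a median r of 0.84 over 9 genes. The median r with S100a8 was 0.106 for 17 monocyte and macrophage genes, -0.168 for 7 dendritic cell genes, -0.29 for 5 NK cell genes, -0.173 for 8 T cell genes and 0.0125 for 7 B cell genes.

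**Figure D5:**
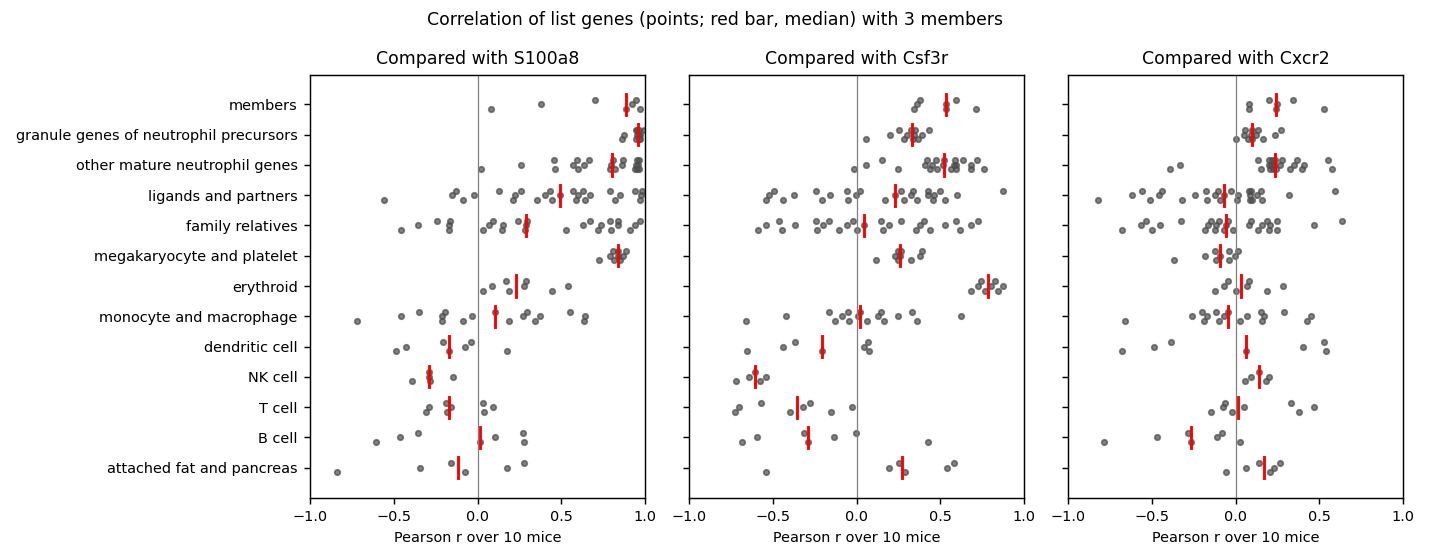
Pearson r over 10 mice (x axis) of the genes of each list (points, with the median as a red bar) with S100a8, Csf3r and Cxcr2. The granule genes of neutrophil precursors lie at 0.866 to 0.994 with S100a8 and at 0.0578 to 0.436 with Csf3r, and the erythroid genes lie highest with Csf3r.

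Of the ligands and partners of the 8 genes, 27 of 32 were kept, and 1 rose with arthritis at equal age while none fell, against 2.26% of all probe sets called. In the lists that follow, 1 of 27, 1 of 22 and 1 of 9 genes passed in this comparison, to be read against the same share. It was Fermt3, the kindlin that activates integrins such as Mac-1, which rose by 0.38 (SE 0.08, adjusted p = 0.0489), a call lost in 8 of the 10 fits that left out 1 mouse. Cxcl5, a ligand of Cxcr2, differed by 0.96 (SE 0.22, adjusted p = 0.0507) and Ppbp, a platelet ligand of Cxcr2, by 0.43 (SE 0.10, adjusted p = 0.0511). Lcn2, whose human protein can be bound to MMP9, differed by 1.57 (SE 0.39, adjusted p = 0.0625) at equal age and rose by 1.90 (SE 0.33, adjusted p = 0.0469) among mice aged 4 months or more, a call lost in 9 of the 10 fits that left out 1 mouse. Itgb2, the chain that pairs with Itgam, differed by 0.24 (adjusted p = 0.129), and Tlr4, a receptor of calprotectin, by -0.15 (adjusted p = 0.682). Signals of Csf3, the ligand of Csf3r, and of Cxcl2 were below the filter. The median of the 27 genes was 0.22 at equal age, and 0.07 when quantile-normalized again.

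Of 34 family relatives, 27 were kept and 1 rose at equal age. S100a1, another S100 protein, rose by 0.51 (SE 0.10, adjusted p = 0.0353) at equal age and by 0.52 (SE 0.09, adjusted p = 0.043) among mice aged 4 months or more, calls lost in 4 and in 9 of the 10 fits that left out 1 mouse. Mmp8, the neutrophil collagenase, differed by 1.56 (SE 0.39, adjusted p = 0.0622) and Treml2 by 0.38 (SE 0.09, adjusted p = 0.0609). The median of the relatives was 0.24, and 0.09 when quantile-normalized again.

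Among the other mature neutrophil genes, Slpi, an inhibitor of neutrophil serine proteases, was the 1 of 22 that rose at equal age, and none fell. It had 14.24 and 14.33 in old arthritic mice, 13.43 and 13.46 in old non-arthritic mice, 14.51 and 14.56 in young arthritic mice, and 13.80, 14.03, 14.40 and 14.17 in young non-arthritic mice. Its difference was 0.89 (SE 0.15, adjusted p = 0.025) at equal age and 0.96 (SE 0.14, adjusted p = 0.0417) among mice aged 4 months or more, lost in 4 and in 7 of the 10 fits that left out 1 mouse. The median of the 22 genes was 0.48, close to the 0.50 of the 8 members. None of the 12 granule genes of precursors passed, though all 12 were higher by unadjusted p under 0.05, against 19.2% of all probe sets, and the median was 1.22, as for Ltf at 1.36 (SE 0.37, adjusted p = 0.0787) and Mpo at 1.11 (SE 0.32, adjusted p = 0.0889). Between old and young non-arthritic mice the median of the 12 was -1.19, and none passed.

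No kept gene of the lists for monocytes and macrophages (17), dendritic cells (7), NK cells (5), T cells (8), B cells (7), erythroid cells (8) or attached fat and pancreas (6) passed at equal age. Of the 9 platelet genes Gp5 rose, by 0.88 (SE 0.18, adjusted p = 0.0392), a call lost in 5 of the 10 fits that left out 1 mouse. The platelet list had a mean signal of 11.22 to 11.37 in old arthritic mice and 10.90 to 10.94 in old non-arthritic mice. It had 11.64 to 12.02 in young arthritic mice and 11.03 to 11.63 in young non-arthritic mice. Like S100a8 it was lowest in the old non-arthritic mice. Unlike S100a8, its old arthritic mice lay within the range of the young non-arthritic mice. Macrophage genes had 11.02 to 11.04 in old arthritic mice, 11.12 to 11.14 in old non-arthritic mice, 11.22 to 11.24 in young arthritic mice and 11.06 to 11.12 in young non-arthritic mice. NK cell genes had 8.81 to 9.15 in old arthritic mice, 9.64 to 9.65 in old non-arthritic mice, 9.46 to 9.47 in young arthritic mice and 9.23 to 9.997 in young non-arthritic mice. T cell genes had 9.58 to 9.69 in old arthritic mice, 9.83 to 9.95 in old non-arthritic mice, 9.93 to 9.998 in young arthritic mice and 9.70 to 10.20 in young non-arthritic mice. For macrophage, NK and T cell genes the old arthritic mice lay below the old non-arthritic mice without overlap. The same held for dendritic cell genes, at 8.60 to 8.76 against 8.78 to 8.83. The share of all probe sets split in this way was not computed, so these splits of small groups are not read as a result. No gene of these lists passed in old mice. Genes of attached fat and pancreas had 7.93 to 8.79 in old arthritic mice, 8.45 to 9.04 in old non-arthritic mice, 8.51 to 8.58 in young arthritic mice and 7.86 to 8.44 in young non-arthritic mice. The part of the mix of cells in each piece of spleen in the differences of the 8 genes was not tested.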

How the data were processed

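Spleen RNA of 10 mice was measured on 1 Affymetrix array each. The authors deposited 1 log2 value per probe set and array, and the submitters' processing notes name RMA. Its version was not given in the sources used here, and the paper's methods do not describe the arrays. The table holds 45101 rows, 64 of them controls, which were left out. Genes were named through the platform's probe-to-gene table: 34945 probe sets have 1 symbol, 932 several and 9160 none, and only the first kind was named.

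Probe sets were kept where at least 2 arrays had them above that array's median. Each gene is represented by the kept probe set of highest mean. Models were fitted to all kept probe sets by lmFit and eBayes of limma 3.58.1 (R 4.3.3). P-values were adjusted over all 23805 by Benjamini and Hochberg's method, with 0.05 as the threshold, and measure the spread between these mice. One fit had a mean for each of the 4 groups (6 residual degrees of freedom), with 1 estimate of the spread for all groups. The other had age in months and arthritis status (7 residual degrees of freedom). Calls rest on few mice, and their number limits the precision. The fit was tested on simulated data. Descriptions and figures used Python 3.11.15, pandas 2.3.3 and matplotlib 3.10.9. Promoters come from RefSeq.

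The genes and lists were chosen with earlier results of these data known. Named are all members, of each list the genes that pass and up to 4 with the smallest p at equal age, a few partners of members, and the 10 genes most correlated with S100a8. Itgb2, Tlr4, Csf3 and Cxcl2 were named for their pairing with members, outside that rule. Alternatives were the filter, the scaling, the estimate of the spread, array weights, a replicate block, fits of only the groups compared, averaging the probe sets of each gene, and leaving out each array.

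Array numbers were checked as pairs. Deviations from group means of same-numbered arrays correlated between -0.525 and 0.356 over 12 pairs. Between groups of 2 mice both numbers give the same value, since the deviations mirror each other, so the 12 pairs are not independent. On these values the numbers were not taken to pair the mice.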

Additional observations from a re-analysis of the deposited data

Results flagged for a closer look

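In the 4 young non-arthritic mice, the lowest mouse stood apart from the other 3 for S100a8, where its gap to the nearest mouse was 0.898 of the range of the group, against a critical value of 0.829. That mouse was the 1-month-old one, at 14.28 against 14.57 to 14.60. The same mouse stood apart for Ctsg (a gap of 0.914 of the range), Trem3 (0.848) and Tyrobp (0.83). Ctsg and Trem3 were among the genes named for their likeness to S100a8 over these same arrays. Their gaps therefore follow in part from that choice and are no separate support. S100a9 missed the critical value at 0.747 and Itgam at 0.741. Chance gives about 1 such gap in 20 groups, 30 probe sets were looked at, and their values are not independent of each other.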

How the results depend on the processing

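None of the 8 genes passed the threshold in any of the 7 comparisons as fitted. At equal age, 3 passed without the filter (S100a8, Mmp9 and Fpr2), when 12.2% of 45037 probe sets did, and 5 with array weights, when 20.4% of 23805 did. Among mice aged 4 months or more, 4 passed without the filter (8.87% of all probe sets), 2 with array weights (6.11%), and 0 to 4 when 1 mouse was left out, the 4 without old arthritic replicate 1 (7.41%). The cause was not tested. Under every other alternative in each comparison the count stayed at 0, also with the replicate block. Of the genes of other lists that passed at equal age, the call held in 5 of 9 alternatives that kept all mice for Fermt3, 6 of 9 for Gp5, 6 of 9 for S100a1 and 7 of 9 for Slpi. Among mice aged 4 months or more it held in 3 of 10 for Lcn2, 4 of 10 for S100a1 and 4 of 10 for Slpi. Quantile normalization and the replicate block lost each of these calls.

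Of 8 genes in 7 comparisons, no call reversed, and values changed sign without being called for Cxcr2, Csf3r, Itgam, Fpr2, Trem1 and Mmp9 when single mice were left out, and for Cxcr2 with the replicate block between old and young non-arthritic mice (-0.07). Groups of 2 mice, in which 1 arthritic mouse was often high and the other not, limit the calls.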
